A study of Mus musculus with 160 samples.

Results

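T cells recognise antigen through the T cell receptor, whose antigen-binding chains carry no signalling part of their own and depend on the associated CD3 chains to reach the surface and to pass a signal into the cell. The kinase Lck, held at the CD4 or CD8 coreceptor, phosphorylates the CD3 chains after engagement. CD4 marks helper and regulatory T cells and CD8 marks cytotoxic T cells, and in the intestine CD8 is also found on many T cells that lie within the epithelium. Foxp3 is the transcription factor that defines regulatory T cells, which restrain inflammation of the colon, and CTLA-4 is an inhibitory receptor that these cells carry at high levels.

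From this system 10 of the 39179 genes counted were followed in every library: Cd3d, Cd3e and Cd3g (the CD3 chains), Lck, Cd5 (a surface receptor that dampens T cell receptor signals), Cd4, Cd8a and Cd8b1 (the coreceptors), Foxp3 and Ctla4. The list is one of gene names with no threshold on values, drawn up with earlier results of these data known, and all 10 were found in the files by Ensembl identifier. The 160 libraries came from the distal colon of mice of 4 knockout lines and their wild-type littermates, in a study that gave dextran sulfate sodium (DSS), a polymer that injures the colonic epithelium, in the drinking water. Knockout samples are labelled HO and wild-type samples WT. The lines are named as in the labels: HEM1 (the gene Nckap1l, 16 HO and 15 WT), DOCK2 (18 HO and 24 WT), GPSM3 (20 HO and 20 WT) and Dok3 (26 HO and 21 WT).

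The HEM1, DOCK2 and GPSM3 lines are labelled C57BL6/J and the Dok3 line 129, which the methods give as 129sw. Mice were 8 to 10 weeks old, and their colon was taken on day 10, or on day 12 for HEM1. DSS was given at 2.8% in the HEM1 line, 3% in the DOCK2 and GPSM3 lines and 3.5% in the Dok3 line. The methods add that a first Dok3 round received 3%. The GPSM3 and Dok3 samples are all labelled male, whereas the HEM1 line held 4 female HO and 8 female WT mice and the DOCK2 line 8 and 12. The HO mice are labelled homozygous knockouts, and no restriction of the deletion to a cell type is given. The labels and methods do not say which mice drank DSS and which drank water. Each group therefore mixes treated and untreated mice, and the comparisons below are between genotypes and between lines only. The tissue was whole, so fewer T cells and less of a transcript per T cell cannot be told apart. The labels give a number for each mouse but no litter or cage, so each library was taken as 1 mouse.

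Library totals ranged from 4344988 to 19993833 counts (median 15989625.5), and 3 counts corresponded to between 0.15 and 0.69 CPM (a library's counts scaled to a common total, with TMM factors). At this depth the T cell genes were thinly covered. The median library held 107 counts of Cd4, 47.5 of Lck, 32 of Foxp3, 26 of Cd3e and 20.5 of Cd5. The other 5 genes were lower, from 17 counts of Cd3g down to 6 counts of Cd8b1, and Cd3d, Cd8a, Cd8b1 and Ctla4 had no count in 1, 1, 4 and 2 libraries. The genes that define colon tissue were present throughout, with a summed level of 8 epithelial genes between 1470 and 19014 CPM. In the Dok3 line 5 libraries labelled male (HO replicates 1, 2 and 3, WT replicates 1 and 2) carried Xist at 2496 to 3382 CPM with Y-linked genes summing to 1.37 CPM or less, and results on that line are given with and without them where they differ.

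The targeted genes were read first. Gpsm3 was lower in GPSM3 HO (median 0.574 CPM, 0.245 to 3.55) than in WT (3.21, 0.725 to 7.55), with a log2 fold change of -2.06 ± 0.28 (SE, n = 20 and 20, edgeR adjusted p = 0.00010). Nckap1l had a median of 14.7 CPM in HEM1 HO and 27.2 in WT, and Dock2 a median of 22.1 CPM in DOCK2 HO and 34.2 in WT, and neither difference passed the test (adjusted p = 1.00 and 0.21). Dok3 was at 3.18 CPM in libraries labelled HO and 3.63 in WT (adjusted p = 1.00), so its level did not separate the groups of the Dok3 line. The ranges overlapped in all 4 lines. Which exons were deleted is not given in the sources used here, so reads from a remaining part of a transcript may be counted, and the levels of Nckap1l, Dock2 and Dok3 are no check of the labels.

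The 3 CD3 genes lie together on chromosome 9 (GRCm38). Cd3g (9:44969572-44980431, minus strand) and Cd3d (9:44981786-44987339, plus strand) point away from each other with 1355 bases between them, and Cd3e (9:44998740-45009627, minus strand) follows 11401 bases further on. The coreceptor genes Cd8b1 (6:71322788-71337494) and Cd8a (6:71373427-71379173) stand 35933 bases apart on the plus strand of chromosome 6, which also holds Cd4 (6:124864692-124888221, minus). Lck is on chromosome 4 (129548344-129573641, minus), Cd5 on chromosome 19 (10717116-10739002, minus), Ctla4 on chromosome 1 (60887000-60915832, plus) and Foxp3 on the X chromosome (7573644-7595245, plus). Foxp3 shares its span with Flicr on the same strand and with Ppp1r3f on the other, and Ctla4 with the pseudogene Rpl18-ps1. How the counting treated strand and shared reads is not stated, so the counts of these genes may include or lack reads of their partners.

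The promoters of the 3 CD3 genes are shown because these genes moved together across the mice (below). Each window runs from 250 bases before to 50 bases after the RefSeq start, 5′ to 3′ on the strand of the gene, and the capitals mark the E-box letters CACCTG (or CAGGTG) and the ETS letters AGGAAG (or CTTCCT), searched on both strands.
Cd3g promoter, GRCm38.p6, chr9:44980382-44980681, minus strand: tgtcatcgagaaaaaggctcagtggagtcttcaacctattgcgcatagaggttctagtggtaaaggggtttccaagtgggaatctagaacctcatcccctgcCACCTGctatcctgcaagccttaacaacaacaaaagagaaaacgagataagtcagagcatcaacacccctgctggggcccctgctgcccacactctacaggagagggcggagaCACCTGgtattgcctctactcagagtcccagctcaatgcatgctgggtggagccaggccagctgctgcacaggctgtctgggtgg
Cd3d promoter, GRCm38.p6, chr9:44981536-44981835, plus strand: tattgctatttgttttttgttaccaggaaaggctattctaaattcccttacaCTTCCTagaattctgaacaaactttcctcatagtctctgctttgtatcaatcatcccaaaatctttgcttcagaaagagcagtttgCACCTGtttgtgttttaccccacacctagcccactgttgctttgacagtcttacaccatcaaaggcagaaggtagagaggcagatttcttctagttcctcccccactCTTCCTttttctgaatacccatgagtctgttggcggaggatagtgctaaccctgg
Cd3e promoter, GRCm38.p6, chr9:45009562-45009861, minus strand: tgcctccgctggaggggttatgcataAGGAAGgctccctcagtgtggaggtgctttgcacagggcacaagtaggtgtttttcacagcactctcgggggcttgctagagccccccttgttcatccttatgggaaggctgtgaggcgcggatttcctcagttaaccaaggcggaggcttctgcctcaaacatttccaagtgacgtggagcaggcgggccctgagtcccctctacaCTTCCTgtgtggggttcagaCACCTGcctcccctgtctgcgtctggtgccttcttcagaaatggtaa
All 3 windows held the E-box letters, Cd3g in 2 places, at 148 and 35 bases before the start. The ETS letters were in the Cd3d and Cd3e windows, in 2 places each, and not in that of Cd3g. The E-box letters were in 20.2% of 32851 mouse promoter windows of this length and the ETS letters in 35.4%. The RUNX letters TGTGGT (16.8% of windows) and the TATA letters TATAAA (13.6%) were in none of the 3. RefSeq windows were at hand for 8 of the 10 genes, of which 6 held the E-box letters. These are matches of letters only, and binding was not measured.

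Because long genes collect more reads, the genes were ordered by CPM per kilobase of exon. The length joins all annotated exons of a gene, from 1483 bases (Cd8b1) to 4928 (Cd5), and may exceed that of the transcripts present. The order between genes therefore depends on the annotation. Cd4 was first, with a median of 1.70 CPM per kb (0.454 to 5.21 over 160 libraries), followed by Lck at 1.06 (0.404 to 5.44). By this measure both coreceptor and kinase were well above the CD3 chains, which stood at 0.447 (Cd3e), 0.414 (Cd3d) and 0.365 (Cd3g). Foxp3 had a median of 0.448 CPM per kb, Ctla4 0.351, Cd8a 0.276, Cd5 0.262 and Cd8b1 0.247. Cd4 was above Cd3e per kb in 158 of 160 libraries and above Cd8a in 156, and Lck was above Foxp3 in 154. Lower in the order the neighbours were not separated: Foxp3 was above Cd3e in 90 libraries, Cd3e above Cd3d in 100, Cd3d above Cd3g in 103, Cd8a above Cd8b1 in 96 and Cd8a above Cd5 in 101. Cd4, which some mouse dendritic cells and innate lymphoid cells also carry, thus stood above the CD3 chains by this measure.

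**Figure D1:**
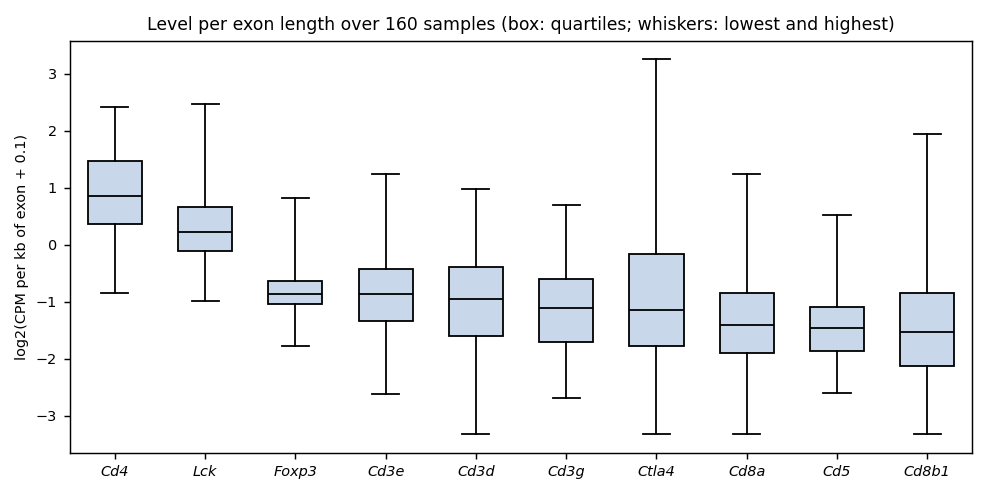
Level of each gene per kilobase of exon over the 160 libraries, as log2(CPM per kb + 0.1), ordered by median. Boxes span the quartiles and whiskers the lowest and highest library. Cd4 (median 1.70 CPM per kb) and Lck (1.06) stand above the other 8 genes, and Ctla4 reaches furthest upward (9.42).

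The spread between libraries differed by gene. Foxp3 was the steadiest of the 10, with a ratio of 2.21 between the 90th and the 10th percentile of its CPM, and Lck followed at 3.27. The CD3 chains had ratios between 5.28 and 6.20. Ctla4 varied most, with a ratio of 14.3, from 0 to 21.96 CPM. Its highest libraries were HEM1 WT replicate 8 at 21.96 CPM, Dok3 HO replicate 17 at 19.1 and Dok3 HO replicate 12 at 13.4. Foxp3 in these libraries was at 3.92, 7.65 and 4.48 CPM, against its median of 2.05 over all libraries, so all 3 were above the Foxp3 median. The first of them also held much Cd3e (7.45 CPM) and the second less (3.55 CPM).

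The first question was whether T cell transcripts in the colon differed between mice with and without each signalling gene. No difference was detectable at this depth and replicate spread. With edgeR's quasi-likelihood test within each line, none of the 9 members that passed the filter on low counts was called at an adjusted p of 0.05, in HEM1 (background 0.0% of 17947 genes called), DOCK2 (0.034% of 17648), GPSM3 (0.00569% of 17560) or Dok3 (0.0% of 17612). At an unadjusted p of 0.05, none of the 9 passed in HEM1, DOCK2 or GPSM3 and 2 passed in Dok3. DESeq2 and limma-voom also called none in any line. In the HEM1 and Dok3 lines edgeR called no gene of any kind, with 807 and 386 genes at an unadjusted p under 0.05, while DESeq2 called 21 and 3 genes and limma-voom called none in either line.

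Among the CD3 chains, Cd3e gives the pattern of levels. In HEM1 it ran from 0.785 through a median of 1.99 to 7.45 CPM in WT and from 0.457 through 3.03 to 6.74 CPM in HO. In DOCK2 the lowest, median and highest were 0.749, 1.65 and 3.09 CPM in WT and 0.470, 1.19 and 4.84 CPM in HO. In GPSM3 they were 0.441, 1.47 and 3.89 CPM in WT and 0.256, 1.49 and 4.48 CPM in HO. The median of HO was above that of WT in HEM1, below it in DOCK2 and nearly level with it in GPSM3, and the groups overlapped over most of their range. In Dok3 the values were 0.589, 2.35 and 9.19 CPM in WT and 0.659, 1.95 and 3.95 CPM in libraries labelled HO, so the highest WT mice had no counterpart in HO. The log2 fold change of HO over WT was 0.33 ± 0.35 in HEM1, -0.20 ± 0.21 in DOCK2, 0.15 ± 0.28 in GPSM3 and -0.44 ± 0.22 in Dok3 (SE), with a smallest edgeR adjusted p of 0.989. In Dok3 the unadjusted p was 0.047 for Cd3e and 0.037 for Cd3g, whose fold change was -0.54 ± 0.25, and Cd3d was at -0.47 ± 0.26 (p = 0.076). Without the 5 libraries whose sex-linked genes went against the label, Cd3e was at -0.45 ± 0.24 (p = 0.063) and Cd3g at -0.47 ± 0.26 (p = 0.081). In HEM1 Cd3g leaned the other way, at 0.60 ± 0.32 (p = 0.073), and Cd3d was at 0.02 ± 0.40. In DOCK2 and GPSM3 the 95% intervals of the 3 CD3 genes lay between -0.62 and 0.94 on the log2 scale.

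Lck and Cd5, the kinase and the damping receptor, were not called between genotypes in any line. Medians of Lck ran from 2.64 CPM in GPSM3 WT to 3.97 in Dok3 WT, and its log2 fold changes were -0.23 ± 0.31 in HEM1, -0.15 ± 0.14 in DOCK2, 0.27 ± 0.21 in GPSM3 and -0.25 ± 0.22 in Dok3. Medians of Cd5 ran from 0.890 CPM in GPSM3 WT to 1.68 in HEM1 HO, with fold changes of -0.04 ± 0.34, 0.10 ± 0.21, 0.20 ± 0.26 and -0.35 ± 0.26 in the same order. WT and HO overlapped for both genes in every line, with the highest Lck library, Dok3 WT replicate 20 at 15.9 CPM, above the highest Dok3 HO library at 8.59 CPM.

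Of the coreceptors, Cd4 had medians of 5.79 and 7.19 CPM in HEM1 WT and HO, 8.21 and 8.20 in DOCK2, 5.31 and 5.91 in GPSM3 and 7.75 and 7.35 in Dok3. Its log2 fold changes were 0.06 ± 0.34, -0.09 ± 0.18, 0.40 ± 0.22 and -0.21 ± 0.23. The difference in GPSM3 was the nearest to the threshold (unadjusted p = 0.071, adjusted p = 0.94). Cd8a, which pairs with itself or with the product of Cd8b1, had medians of 0.881 and 1.83 CPM in HEM1 WT and HO, and its fold change there of 0.64 ± 0.40 had a 95% interval from -0.18 to 1.45. In DOCK2, GPSM3 and Dok3 it was at -0.21 ± 0.26, 0.09 ± 0.39 and -0.54 ± 0.30. Cd8b1 failed the filter in every line. Its medians were 0.300 and 0.521 CPM in HEM1 WT and HO, 0.349 and 0.183 in DOCK2, 0.329 and 0.370 in GPSM3 and 0.499 and 0.431 in Dok3. Counts behind them were few, with a median of 6 over all libraries and of 3 in DOCK2 HO. On log2 CPM the difference of HO from WT was 0.44 in HEM1, -0.54 in DOCK2, -0.14 in GPSM3 and -0.51 in Dok3, with unadjusted two-sided permutation p-values of 0.20, 0.015, 0.74 and 0.12 in 4 tests. When genes with at least 1 count were kept, edgeR put Cd8b1 at 0.21 ± 0.44 in HEM1 and -0.05 ± 0.49 in GPSM3. In that fit it was at -0.54 ± 0.33 in DOCK2 (unadjusted p = 0.11, adjusted p = 0.91). In Dok3 it was at -1.02 ± 0.39 (unadjusted p = 0.012, adjusted p = 0.92).

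Foxp3 and Ctla4, the genes tied to regulatory T cells, did not pass the test between genotypes either. Foxp3 ran from 1.57 through a median of 2.43 to 5.11 CPM in HEM1 WT and from 1.29 through 1.93 to 3.71 CPM in HO. In DOCK2 the values were 1.35, 2.04 and 3.15 CPM in WT and 1.07, 2.05 and 3.76 CPM in HO, so the medians nearly coincided. In GPSM3 they were 0.882, 1.84 and 3.06 CPM in WT and 1.29, 2.13 and 3.88 CPM in HO, and in Dok3 1.30, 2.13 and 4.54 CPM in WT and 1.39, 2.05 and 7.65 CPM in HO. The log2 fold changes were -0.27 ± 0.18, 0.02 ± 0.12, 0.28 ± 0.14 and 0.03 ± 0.16. The one in GPSM3 had an unadjusted p of 0.053. Intervals of Foxp3 were the narrowest of the members, and in DOCK2 its 95% interval ran from -0.21 to 0.25. Ctla4 had the widest, with fold changes of -0.96 ± 0.65 in HEM1, -0.36 ± 0.33 in DOCK2, 0.74 ± 0.47 in GPSM3 and 0.39 ± 0.45 in Dok3. Its highest WT library lay at 21.96 CPM in HEM1, 4.13 in DOCK2, 4.16 in GPSM3 and 9.60 in Dok3, and its highest HO library at 6.48, 3.88, 8.41 and 19.1 CPM.

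**Figure D2:**
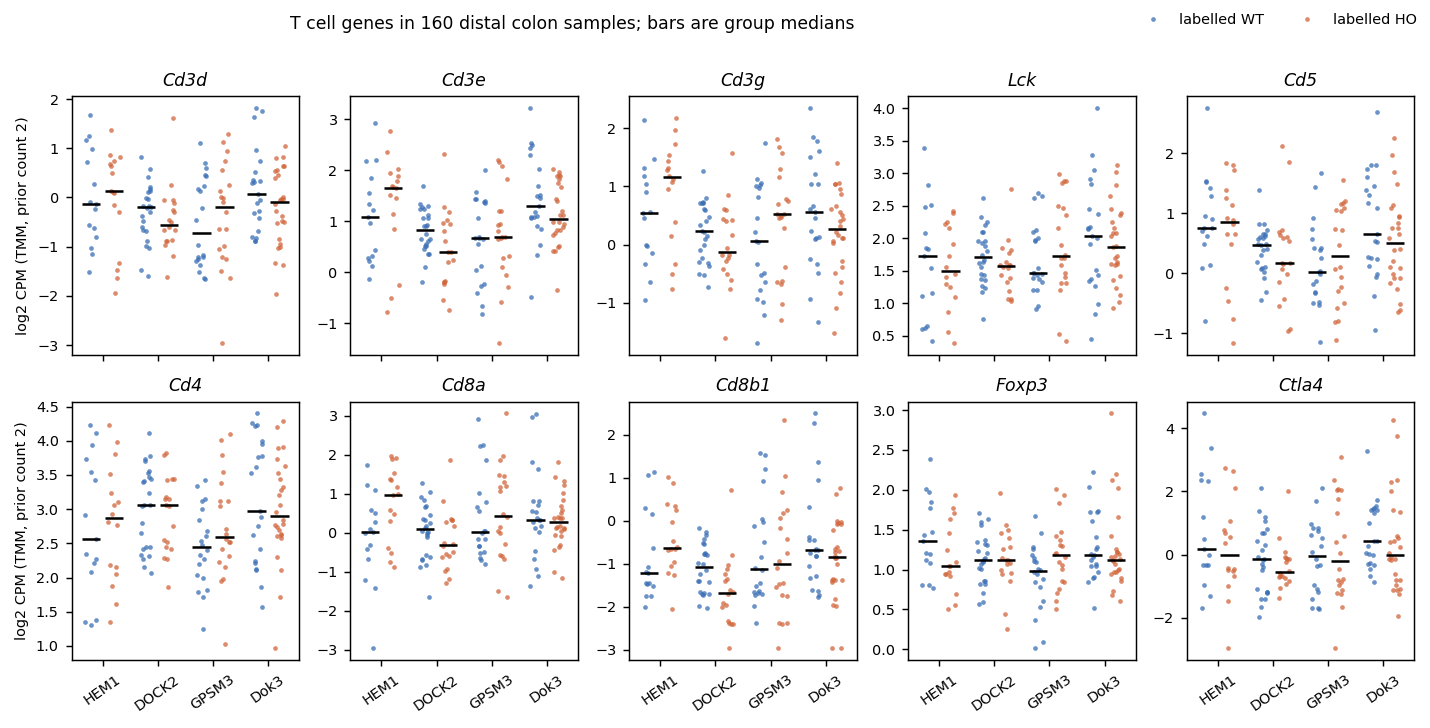
The 10 genes in every library, as log2 CPM (TMM, prior count 2), with WT (blue) and HO (orange) side by side for each line and a bar at each group median. WT and HO overlap in every panel, and the long upper tails of Ctla4 belong to single mice of both genotypes.

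**Figure D3:**
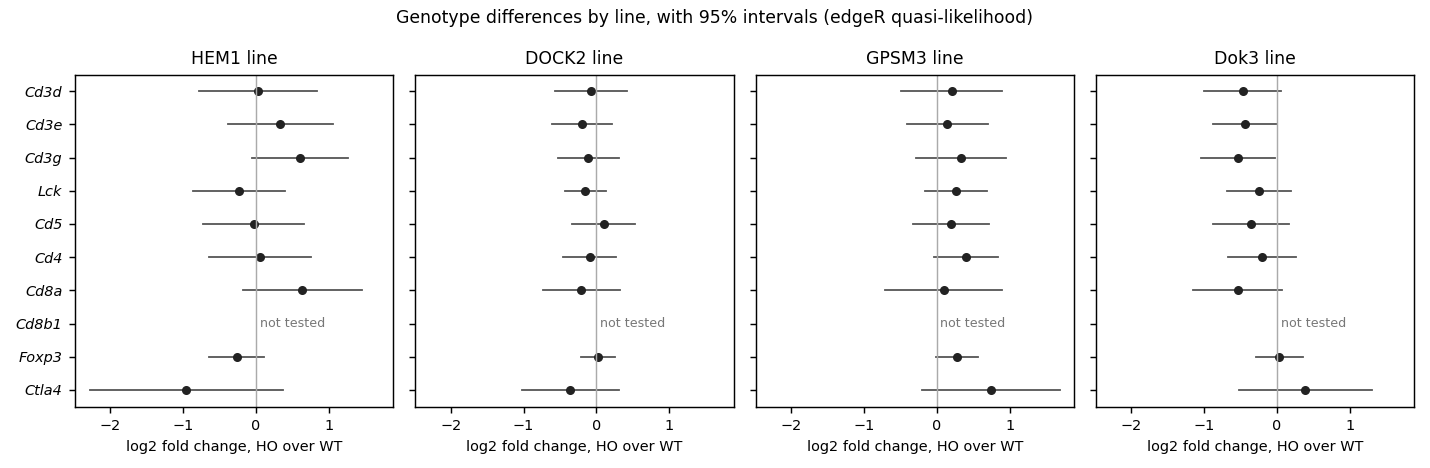
Log2 fold change of HO over WT for each member in the 4 lines, with 95% intervals from edgeR's quasi-likelihood fit. Cd8b1 did not pass the filter, the intervals of Foxp3 are the narrowest, and those of Cd3e and Cd3g in Dok3 (-0.44 and -0.54) end just below 0 before adjustment.

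Line by line, 9 of 9 fold changes were above 0 in GPSM3 (median 0.27), 7 of 9 below 0 in DOCK2 (median -0.11) and in Dok3 (median -0.35), and HEM1 was split with 5 above and 4 below (median 0.02). The median over all genes tested lay between -0.0028 and 0.0083. The members were correlated across mice (below), so their signs within a line are not independent. The summed level of 9 neutrophil markers had medians of 7.75 CPM in GPSM3 WT and 17.1 in HO, and none of these markers passed the test. After the neutrophil mean was added as a covariate, the fold changes of Cd3d, Cd3e and Cd8a in GPSM3 went to -0.080, -0.094 and -0.18. Those of the other members tested stayed above 0. The cause of this change was not tested. A test of whether the HO minus WT difference varied among the 4 lines called none of the 10 members (0.69% of 19849 genes called). Cd3g came nearest with an unadjusted p of 0.031 and an adjusted p of 0.74, and Ctla4 followed with p = 0.050. Limma-voom also called no member in that test.

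The wider T cell system was read from 4 lists. None of the tested genes of the T cell receptor and proximal signalling list (21 or 22 of 22 tested in each line), the regulatory T cell list (8 or 9 of 12), the helper and naive T cell list (12 or 13 of 16) or the intraepithelial and cytotoxic list (7 or 8 of 13) was called in any line. Of the receptor and signalling list, 21 of 21 fold changes were above 0 in GPSM3 (median 0.28) and 2 of 21 in DOCK2 (-0.27). In Dok3 the count was 1 of 22 (-0.27) and in HEM1 8 of 22 (-0.059). Genes of this list were among the nearest in pattern to Cd3e and Cd8a (below), so their signs within a line are not independent either. The medians of all 4 lists lay between -0.30 and 0.51, and the genes with the smallest unadjusted p in a list are named here, apart from that of the receptor and signalling list in HEM1. In HEM1 they were Il10, a regulatory cytokine (-0.69 ± 0.47, p = 0.15), Cxcr5, a receptor that guides cells into follicles (-1.33 ± 0.42, p = 0.0034), and Nkg7, a granule protein of cytotoxic cells (0.96 ± 0.32, p = 0.0056). In DOCK2 they were Cd28, the costimulatory receptor (-0.59 ± 0.18, p = 0.0021), Tnfrsf9 (-0.44 ± 0.33, p = 0.20), Cxcr5 (-0.76 ± 0.18, p = 0.00016, adjusted p = 0.15) and the epithelial-homing integrin chain Itgae (0.15 ± 0.08, p = 0.055). In GPSM3 they were the kinase Fyn (0.27 ± 0.11, p = 0.021), the interleukin 2 receptor chain Il2ra (0.69 ± 0.25, p = 0.0097), Bcl6 (0.44 ± 0.15, p = 0.0056) and the receptor Klrk1 (0.57 ± 0.24, p = 0.019). In Dok3 they were the receptor chain Cd247 (-0.35 ± 0.16, p = 0.031), Tigit (-0.37 ± 0.25, p = 0.14), Gata3 (-1.36 ± 0.66, p = 0.044) and Klrk1 (-0.50 ± 0.23, p = 0.035). Among the B cell markers Cr2 was called in DOCK2, a complement receptor of B cells (-1.53 ± 0.28, adjusted p = 0.013). The summed level of 10 B cell markers had medians of 33.1 CPM in DOCK2 HO and 81.3 in WT. In HEM1 these medians were 6.56 CPM in HO and 57.8 in WT, and none of the markers was called. There the sum ran from 3.64 to 130 CPM in HO and from 4.29 to 482 CPM in WT.

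The wild-type mice show how much these genes vary between lines with no gene knocked out. Line is tied to strain, day, dose, sample numbering and the unknown share of mice on DSS, so the lines cannot be told apart from these. Over the 80 wild-type libraries, with sex as a covariate, edgeR called 7 of 10 members as different among the 4 lines, against a background of 41.8% of 19060 genes. These were Ctla4 (adjusted p = 0.0021), Cd3e (0.0022), Cd5 (0.0026), Foxp3 (0.0096), Cd4 (0.027), Cd3d (0.035) and Cd8b1 (0.046). Cd3g (0.055), Lck (0.077) and Cd8a (0.27) were not called. In males only, 2 members were called, Cd3e and Cd5, and limma-voom called 4. Leaving out in turn each of the 17 wild-type libraries that were highest in some member of its line left between 5 and 8 members called, and Cd3e, Cd5, Foxp3 and Ctla4 passed each time.

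The 6 pairs of lines share their wild-type groups. Dok3 stood above DOCK2 and GPSM3. Against DOCK2, all 10 fold changes were above 0 and 4 members were called (10.6% of genes): Cd3e at 1.06 ± 0.27 (adjusted p = 0.0049), Cd5 at 0.90 ± 0.26 (0.013), Cd8b1 at 1.52 ± 0.47 (0.024) and Cd3g at 0.87 ± 0.30 (0.049). Cd3e was the only one of them that limma-voom and the males-only fit also called. The call of Cd3g was lost without any one of 8 of 17 libraries (adjusted p up to 0.105, without Dok3 WT replicate 20). Without Dok3 WT replicate 7 or 20 the count fell to 2, and the adjusted p of Cd8b1 rose to as much as 0.078. These mice had 5.53 and 4.72 CPM of Cd8b1, while the median of Dok3 WT was 0.499 CPM. Against GPSM3, all 10 were again above 0 and 5 members were called (30.4% of genes): Cd3e at 0.88 ± 0.25 (0.0050), Cd4 at 0.84 ± 0.24 (0.0064), Cd5 at 0.81 ± 0.24 (0.0072), Foxp3 at 0.40 ± 0.14 (0.024) and Cd3d at 0.74 ± 0.29 (0.048). Cd3e, Cd4, Cd5 and Foxp3 were also called by limma-voom, in males only and with the neutrophil mean as a covariate. The call of Cd3d was lost without any one of 5 libraries (adjusted p up to 0.108, without Dok3 WT replicate 20). Without Dok3 WT replicate 18, 3 were called and Foxp3 had an adjusted p of 0.063. Without the 2 Dok3 WT libraries whose sex-linked genes went against the label, Cd3e was at 1.10 ± 0.28 against DOCK2 and 0.91 ± 0.25 against GPSM3, and each of the 9 calls was kept.

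Other T cell genes were read in the same contrasts, where 30.4% of all genes were called against GPSM3 and 10.6% against DOCK2, and those named were picked after their values were seen. Against GPSM3, 15 of the 22 genes of the receptor and signalling list were higher in Dok3 and none lower, among them Trac, the constant part of the alpha chain (1.46 ± 0.31), the kinase Fyn (0.55 ± 0.11), Rasgrp1 (0.99 ± 0.22) and Cd247 (0.66 ± 0.16). Against DOCK2, 9 of 22 were higher and none lower, Trac (1.72 ± 0.34) and Rasgrp1 (1.02 ± 0.23) among them. The median over the list was 0.67 and 0.63, beside 0.02 over all genes in both. Of the regulatory list, 7 of 10 tested genes were higher in Dok3 than in GPSM3 and 1 of 10, near the background share, was higher than in DOCK2, where that gene was the checkpoint receptor Tigit (1.66 ± 0.33). Of the helper and naive list, 9 of 14 were higher than in GPSM3, Lef1 (1.02 ± 0.17) among them. Of 9 neutrophil genes, 4 were higher in Dok3 than in GPSM3, and none was called against DOCK2. Of 6 plasma cell genes, 4 were higher each time. When the neutrophil mean was a covariate, 4 members were called against GPSM3 and 6 against DOCK2, where Cd3d (0.93 ± 0.27) and Lck (0.64 ± 0.23) joined. The part of B and plasma cells in these values was not tested.

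By edgeR, Ctla4 was called as higher in HEM1 wild-type mice than in those of DOCK2 and GPSM3. Limma-voom called it in neither contrast (adjusted p = 0.095 and 0.18). Ctla4 was lower in DOCK2 than in HEM1, at -1.93 ± 0.45 (adjusted p = 0.0066), and lower in GPSM3, at -1.91 ± 0.54 (0.011). Foxp3 was at -0.57 ± 0.16 in GPSM3 against HEM1 (0.013) and at -0.37 ± 0.14 in DOCK2 against HEM1 (0.061). Cd5 was lower in DOCK2 at -0.67 ± 0.24 (0.049), a call that was lost without any one of 11 libraries (adjusted p up to 0.169, without HEM1 WT replicate 8). Thus 2 of 10 members were called in each contrast, close to the share of all genes, with 15.4% of genes called for DOCK2 and 24.1% for GPSM3. Of the regulatory list, 6 and 7 of 10 tested genes were lower than in HEM1, with, picked after their values were seen, Il2ra at -1.03 ± 0.25 and -1.33 ± 0.30, Tnfrsf9 at -1.44 ± 0.38 and -1.92 ± 0.45, and Icos at -0.97 ± 0.33 and -1.16 ± 0.38. The HEM1 wild-type mice were high in skin genes as well, with a median summed level of 836 CPM over 6 genes beside 7.82 in DOCK2 WT and 8.23 in GPSM3 WT. Neutrophil genes had medians of 27.3, 19.3 and 7.75 CPM in the 3 groups. With the neutrophil mean as a covariate Ctla4 was at -0.67 (adjusted p = 0.12) against DOCK2 and -0.27 (0.67) for GPSM3, and in males only it was at -1.25 (0.60) and -1.46 (0.12). Without HEM1 WT replicate 10, no member was called for GPSM3 against HEM1, with Ctla4 at an adjusted p of 0.058 and Foxp3 at 0.088. Dok3 against HEM1 (11.5% of genes) and GPSM3 against DOCK2 (0.121% of genes) had no member called by edgeR, with 1 member at an unadjusted p under 0.05 in each, namely Ctla4 at -1.16 ± 0.53 (p = 0.031) and Cd8b1 at 1.08 ± 0.47 (p = 0.025). Limma-voom called none in either. With the neutrophil mean as a covariate Cd3e (0.86 ± 0.27, adjusted p = 0.023), Cd4 (0.84 ± 0.23, 0.0080) and Lck (0.79 ± 0.26, 0.035) were called as higher in Dok3 than in HEM1.

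Sex could be tested in 2 lines. No member was called between females and males in HEM1 (0.178% of genes called) or DOCK2 (9.75%), and the only one with an unadjusted p under 0.05 was Ctla4 in DOCK2, lower in females at -0.67 ± 0.33 (p = 0.048, adjusted p = 0.19). Its medians were 0.581 CPM in 20 females and 0.745 in 22 males. Given the neutrophil mean as a covariate, Cd4 was called there as higher in females (0.40 ± 0.13, adjusted p = 0.037). The test of whether the genotype difference varied with sex called no member in HEM1 (0.0% of genes) or DOCK2 (0.198%), where no member had an unadjusted p under 0.05, and limma-voom called none in these tests.

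The sample numbers of the HEM1, GPSM3 and Dok3 lines fall into separate runs, whose meaning the labels do not give. In HEM1 these blocks differed in 38.0% of all genes, and of the members Ctla4 was called (F = 5.49, adjusted p = 0.031). Its median was 1.08 CPM in 14 mice of block 1, 4.13 in 9 mice of block 2 and 0.645 in 8 mice of block 3, and Foxp3 followed the same order at 2.17, 2.97 and 1.86 CPM (adjusted p = 0.082). Leaving out 1 mouse at a time left between 0 and 2 members called, and Ctla4 was not called without HO replicate 8, 9 or 12 or WT replicate 1, 2 or 13, and limma-voom called none. Beside the neutrophil mean the adjusted p of Ctla4 was 0.35, and Cd4 was called in its place (F = 10.7, adjusted p = 0.0029). In GPSM3 no member was called between blocks (7.93% of genes), and Cd8a (-0.92 ± 0.38, adjusted p = 0.13) and Foxp3 (0.29 ± 0.13, 0.17) had unadjusted p-values under 0.05. In Dok3 none was called (0.125%) and none had an unadjusted p under 0.05. The test of whether it varied between blocks called no member in HEM1 (0.0%), GPSM3 (0.342%) or Dok3 (0.0%), where Cd5 in GPSM3 was the only member with an unadjusted p under 0.05 (1.20 ± 0.49, p = 0.020, adjusted p = 0.55).

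The T cell genes rose and fell together from mouse to mouse. After each line and genotype was centred on its own mean, all 45 pairs of members were positively correlated over the 160 mice, with Pearson's r from 0.33 to 0.83 and a median of 0.66. Cd3e followed Cd3g with r = 0.83 (Spearman's rho = 0.84) and Cd3d with r = 0.82 (rho = 0.83), and Cd8a followed its partner chain Cd8b1 with r = 0.83 (rho = 0.80). Within the 4 lines these correlations ran from 0.74 to 0.91, 0.73 to 0.90 and 0.71 to 0.95. The weakest pairs set Foxp3 against the CD8 chains, at 0.33 with Cd8b1 and 0.36 with Cd8a (rho = 0.37, 0.26 to 0.53 within lines). With the CD3 chains Foxp3 was at 0.50 to 0.58.

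Cd3e was next closest to Lck (r = 0.73, rho = 0.73), Cd5 (0.72 and 0.69), Cd8a (0.70 and 0.70), Ctla4 (0.68 and 0.66), Cd4 (0.65 and 0.64) and Foxp3 (0.58 and 0.58). Cd4 and Cd8a were correlated at 0.53 (rho = 0.56) and Foxp3 and Ctla4 at 0.70 (rho = 0.66). Permutation tests were run on 18 relations, 15 planned and 3 chosen after their values had been seen (below). Each had a permutation p of 1e-05 for r and rho, the smallest that 100000 resamples within line and genotype can give. Benjamini-Hochberg adjusted values over the 18 were 1e-05. For the 3 chosen relations these p-values are no test, because a high r led to their choice. Without the 2 mice farthest from the median on the first measure, r ran from 0.36 (Foxp3 with Cd8a) to 0.83 (Cd8a with Cd8b1). Within the 8 sample-number blocks r stayed at or above 0.51 for Cd3e with Cd3d, Cd3g, Lck, Cd5 and Cd8a and for Cd8a with Cd8b1, but between Cd4 and Cd8a it ran from 0.00 to 0.81. The low counts of most members add counting noise that lowers r, and this noise was not removed.

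**Figure D4:**
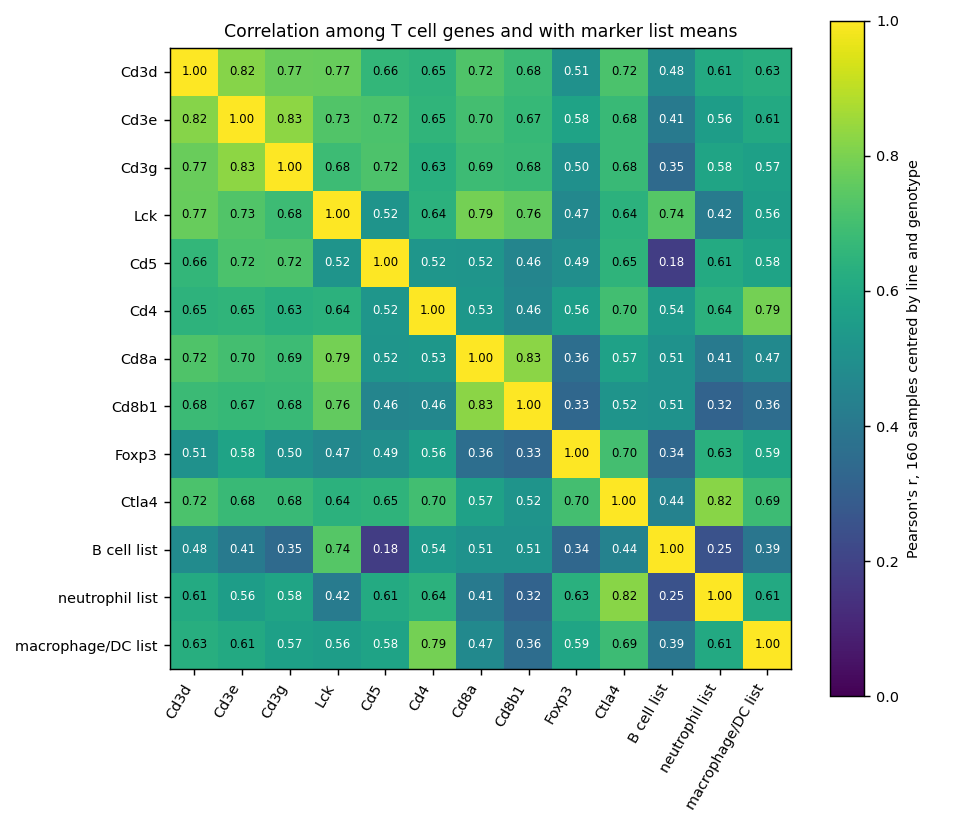
Pearson's r between the 10 genes and with the mean of 3 marker lists, over 160 libraries of log2 CPM centred by line and genotype. The CD3 chains (0.77 to 0.83) and the CD8 chains (0.83) form the brightest blocks, Foxp3 with the CD8 chains (0.33 and 0.36) the dimmest pairs among the genes, and Ctla4 with the neutrophil list (0.82), Cd4 with the macrophage list (0.79) and Lck with the B cell list (0.74) stand out from their rows.

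The members were also read against markers of other cell types. Ctla4 followed the mean of the 9 neutrophil markers with r = 0.82 (rho = 0.77, 0.78 to 0.86 within lines), and Foxp3 followed it at 0.63 (rho = 0.58) and Cd3e at 0.56 (rho = 0.60). The neutrophil markers summed to between 1.83 and 9965 CPM over the 160 mice, and Dok3 HO replicate 17, highest of all in them, held 19.1 CPM of Ctla4 and 7.65 of Foxp3. HEM1 WT replicate 8, with 21.96 CPM of Ctla4, was at 635 CPM of neutrophil markers and had the highest B cell level of all mice, at 482 CPM. Lck followed the B cell mean at 0.74 (rho = 0.74, 0.60 to 0.82 within lines), and Cd3e did so at 0.41 (rho = 0.46) and Cd5 at 0.18. Cd4 followed the mean of 12 macrophage and dendritic cell markers at 0.79 (rho = 0.79, 0.77 to 0.82 within lines). The relations of Ctla4, Lck and Cd4 with these lists were chosen after the values had been seen. When the neutrophil mean was regressed out within each line and genotype, Foxp3 with Ctla4 fell from 0.70 to 0.39, Cd3e with Ctla4 from 0.68 to 0.48, Cd3e with Cd3g from 0.83 to 0.74 and Cd8a with Cd8b1 from 0.83 to 0.80. Foxp3 with Cd8a went to 0.17 (adjusted p = 0.052). Whether mice on DSS and mice on water form the ends of these relations cannot be told apart from a graded relation, since treatment is not labelled.

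**Figure D5:**
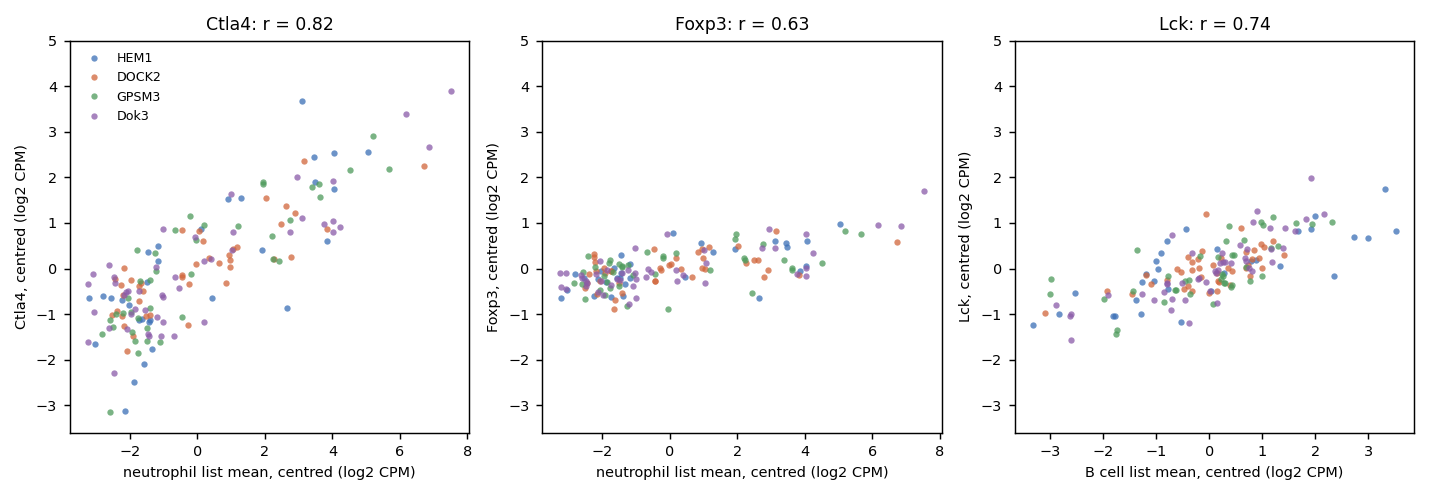
Ctla4 and Foxp3 against the mean of 9 neutrophil markers and Lck against the mean of 10 B cell markers, in log2 CPM centred by line and genotype, with 1 point per mouse coloured by line. On a common vertical scale Ctla4 (r = 0.82) climbs more steeply than Foxp3 (r = 0.63). The centring itself places the 4 lines over one another.

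The genes nearest in pattern to 4 members over the 160 mice were ranked by Pearson's r among 16861 genes that passed the filter in all 4 lines. For Cd3e they were Zap70 (0.83), the kinase that binds phosphorylated CD3 chains, Trbc2 (0.80), the constant part of the beta chain, Spn (0.80), H2-Q7 (0.80) and Ms4a4b (0.80). For Cd8a they were Ms4a4b (0.82), Themis (0.79), Ccl5 (0.76), a chemokine of cytotoxic cells, Sh2d2a (0.75) and Cd6 (0.75). Zap70, Trbc2, Themis and Cd6 are on the list of receptor chains and signalling used above. For Foxp3 they were Wipf1 (0.75), Icos (0.73), Ifnar2 (0.73), Arrb2 (0.73) and Fyb (0.72), of which Icos is a costimulatory receptor of regulatory and follicular T cells. For Cd4 they were Ms4a7 (0.85), Ly9 (0.84), Pik3cd (0.82), Laptm5 (0.82) and Cd300c2 (0.82). None of the 5 is on a T cell list or on the macrophage and dendritic cell list used here, and which cells carried them was not tested. Chosen after the values had been seen, the 5 genes nearest Ctla4 were Icos (0.89), Lcp2 (0.88), Itgal (0.88), Hcls1 (0.87) and Themis2 (0.87), and those nearest Lck were Ms4a4b (0.88), Rasal3 (0.87), Gimap4 (0.87), Gimap3 (0.87) and Sept1 (0.85). The median r over all compared genes lay between -0.04 (Cd4) and -0.0065 (Cd8a).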

How the data were processed

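The distal colon of 160 mice was sequenced with a stranded library kit after ribosomal RNA depletion. Per the labels and the submitters' processing notes, STAR alignment to mm10 and gene-level counting by featureCounts (Subread) were done by the authors, who deposited raw counts. Tool versions and the strand setting are not given in the sources used here. Of 39179 genes, 37607 (95.99%, holding 99.668% of counts) were given symbols from GENCODE vM21 (GRCm38). Library totals ran from 4344988 to 19993833 counts. Counts were tested with edgeR 4.0.16 in R 4.3.3 (TMM, filterByExpr, quasi-likelihood, Benjamini-Hochberg over all genes tested, threshold 0.05), within each line for genotype, with sex as a covariate in HEM1 and DOCK2, and over wild-type mice for lines. Levels are TMM-scaled CPM, with a prior count of 2 on the log2 scale. DESeq2 1.42.0, limma-voom 3.58.1, 2 surrogate variables (sva 3.50.0), other filters, scaling, covariates and sample sets were alternatives. Permutation tests used 100000 resamples.

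The members and gene lists were chosen with earlier results of these data known. Named are the members, the knocked-out gene of each line, the gene of smallest p per list in each genotype comparison (printed for the T cell lists, and for B cells in DOCK2), and the 5 genes nearest in pattern to Cd3e, Cd4, Cd8a and Foxp3. The list genes named in the wild-type comparisons and the 5 genes nearest Ctla4 and Lck were picked after their values were seen. The promoter sequences are RefSeq's. On simulated counts 92.0 to 95.5% of genes changed by 1.5 on the log2 scale were recovered, and 3.54 to 6.37% of calls were false. The changed genes were drawn from all genes that passed the filter. Smaller changes were not simulated, so recovery for the members at their low counts is not known. No replicate pair agreed within counting noise. Each library is labelled as a separate mouse. The 95% intervals of fold changes come from edgeR's quasi-likelihood fit, which includes variation between mice. Results for some list genes are not reported here.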

Additional observations from a re-analysis of the deposited data

Results flagged for a closer look

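Of 110 combinations of gene and group of 4 to 10 mice (line, genotype and sample-number block), 3 held a mouse that stood far from the rest, in 2 libraries, and chance gives such a mouse in about 1 in 20 groups. Ctla4 was at 21.956 CPM (342 counts) in HEM1 WT replicate 8, the highest of 8 mice in block 1, where the others lay between 0.181 and 2.17 CPM. Cd8b1 was at 2.054 CPM (32 counts) in the same mouse, with the others between 0.122 and 0.311 CPM, and its neutrophil and B cell markers summed to 635 and 482 CPM. Foxp3 was at 0.882 CPM (4 counts) in GPSM3 WT replicate 17, the lowest of 10 mice in block 2, where the others lay between 1.67 and 3.06 CPM. At 4 counts for 0.882 CPM this library was shallow. The smallest total of the series, 4344988 counts, was in GPSM3 WT, where the median was 16765447.5. The causes were not tested.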

How the results depend on the processing

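No member was called between HO and WT in any line under any alternative run. Signs of fold changes that were not called did turn. With 2 surrogate variables, Cd3d, Cd3e, Cd5 and Cd8a in GPSM3 went to -0.10, -0.12, -0.090 and -0.16, Lck in HEM1 to 0.040 and Ctla4 in Dok3 to -0.032. With the B cell mean as a covariate, Lck, Foxp3, Cd5 and Ctla4 in HEM1 went to 0.73, 0.10, 0.48 and 1.34, Cd8a, Cd3e and Cd3d in GPSM3 to -0.24, -0.042 and -0.023, and Cd3d, Cd4, Cd3e, Lck, Cd3g and Cd8a in DOCK2 to 0.27, 0.15, 0.10, 0.13, 0.05 and 0.14. With the neutrophil mean, Cd3d, Cd3e and Cd8a in GPSM3 went to -0.080, -0.094 and -0.18, Ctla4 and Foxp3 in Dok3 to -0.074 and -0.0023, and wild-type Ctla4 in Dok3 against HEM1 to 0.060. In males only, Cd3d, Cd3e, Cd3g, Cd4, Cd8a and Lck in DOCK2 went to 0.21, 0.10, 0.093, 0.093, 0.17 and 0.020 and Cd5 in HEM1 to 0.17. Limma-voom gave Cd3d in HEM1 -0.0018, Cd5 in DOCK2 -0.12, and Foxp3 and Ctla4 in Dok3 -0.024 and -0.30. Without TMM, Foxp3 in DOCK2 was at -0.00070. The joint fit gave Cd3d in HEM1 -0.043, and without sex as a covariate Cd3d and Cd4 in HEM1 were at -0.083 and -0.054.

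Counts of members called moved as follows. With the neutrophil mean, DOCK2 females against males went from 0 to 1, the GPSM3 blocks from 0 to 1, wild-type Dok3 against HEM1 from 0 to 3, and DOCK2 and GPSM3 against HEM1 from 2 to 0 each. With limma-voom the HEM1 blocks went from 1 to 0, DOCK2 against HEM1 from 2 to 0, GPSM3 against HEM1 from 2 to 1, Dok3 against DOCK2 from 4 to 1 and the 4 lines from 7 to 4. In males only the last 4 of these were 0, 0, 1 and 2. Without TMM, DOCK2 against HEM1 had 1. With blocks 1 and 2 only, the HEM1 blocks had 0. Leaving out 1 library at a time gave 0 to 2 for the HEM1 blocks, 1 to 3 for DOCK2 against HEM1, 2 to 6 for Dok3 against DOCK2, 3 to 7 for Dok3 against GPSM3, 0 to 1 for Dok3 against HEM1, 0 to 3 for GPSM3 against HEM1 and 5 to 8 for the 4 lines. The 11 libraries without any one of which Cd5 was lost in DOCK2 against HEM1 were DOCK2 WT 6, 17 and 19, Dok3 WT 7, 11 and 18, GPSM3 WT 6 and 14 and HEM1 WT 8, 10 and 15. Cd3g in Dok3 against DOCK2 was lost without any one of DOCK2 WT 13 and 19, Dok3 WT 7, 18 and 20, GPSM3 WT 14 and HEM1 WT 8 and 15, and Cd3d in Dok3 against GPSM3 without any one of DOCK2 WT 19 and Dok3 WT 7, 11, 18 and 20. Dok3 against HEM1 gained its call without Dok3 WT 18, and the HEM1 blocks had 2 without HO 10 or 11. The leave-one-out fits, the HEM1 fits on blocks 1 and 2 and on males, and the wild-type fits and correlations without mismatched sex-linked genes were chosen after seeing the data. On residuals from the neutrophil mean, Foxp3 with Cd8a had r = 0.17 (adjusted p = 0.052). The cause of these changes was not tested. No paired analysis was possible because no mouse number in the labels is shared by an HO and a WT mouse.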
